A study of Mus musculus with 20 samples.

Results

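The liver makes glucose from lactate, glycerol and amino acids, stores it as glycogen and releases it into the blood. The RNA of 9 genes at the regulated steps of these routes was followed: Pck1, Fbp1, G6pc and Slc37a4 of gluconeogenesis and glucose release, Pklr and Gckr of glycolysis and its control, the glucose transporter gene Slc2a2, and Gys2 and Pygl of glycogen synthesis and breakdown. They were taken by gene symbol from a table of 20914 genes. All 9 were present, and all 9 were among the 13670 genes with enough fragments for testing.

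Cytosolic phosphoenolpyruvate carboxykinase starts the committed part of gluconeogenesis, fructose-1,6-bisphosphatase bypasses phosphofructokinase, and the catalytic subunit of glucose-6-phosphatase frees glucose in the endoplasmic reticulum. Glycogen synthase and glycogen phosphorylase run the store in opposite directions, and liver pyruvate kinase runs the last step of glycolysis. In liver these steps answer to insulin, glucagon and feeding, and several of the genes are controlled mainly through transcription.

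Total RNA of the liver's left lateral lobe was sequenced from 20 mice of the LiB12cKO strain, all male and aged 8 weeks. The 10 KO mice had the genotype HSD17B12lox/lox;Alb-CreCre/WT and the 10 WT mice HSD17B12lox/lox;Alb-CreWT/WT, so both genotypes carried the floxed Hsd17b12 gene. Hsd17b12 encodes a 3-ketoacyl-CoA reductase of very-long-chain fatty acid elongation, and the albumin promoter drives Cre recombinase in hepatocytes. Cre was present in the KO mice alone, so an effect of Cre and an effect of Hsd17b12 loss cannot be told apart. The labels give no feeding state, time of day, litter or batch.

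The targeted gene was lower in every KO mouse. Hsd17b12 had 44.2 to 51.3 CPM with a median of 47.9 in KO mice, against 122.8 to 177.2 CPM with a median of 153.9 in WT mice. CPM are fragment counts relative to the library's size, here scaled by TMM factors, which assume that most genes do not differ between libraries. Between 16693195 and 29124124 fragments of each library were assigned to genes, and the rarest of the 9 genes, Pklr, had at least 1278 fragments in any mouse. Fragments mapping to several places made up 3.32 ± 1.89% of fragments in KO libraries and 9.68 ± 3.71% in WT libraries (SD, n = 10 each).

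The hepatocyte identity genes, taken as a check of the tissue, were all present: albumin alone had a median of 36127.5 CPM in KO and 63705.9 CPM in WT livers. Of these 14 genes 13 were lower and 0 higher in KO (edgeR quasi-likelihood test, adjusted p under 0.05), where 31.0% of all tested genes were lower and 28.2% higher. Their summed level was 66998.3 to 84226.5 CPM in KO and 99749.6 to 138419.4 CPM in WT livers. Of 11 macrophage and Kupffer cell markers 10 were higher and 0 lower, with sums of 322.5 to 594.3 CPM in KO and 133.3 to 288.6 CPM in WT livers. Of 7 stellate and fibroblast markers 5 were higher and 0 lower, with sums of 141.9 to 335.8 CPM in KO and 81.5 to 191.9 CPM in WT livers. Of 7 endothelial markers 3 were higher and 0 lower, and of 5 tested biliary markers 2 were higher and 1 lower. Of the lymphocyte, neutrophil, erythroid and kidney proximal tubule markers 2, 2, 3 and 1 were tested, and 1 lymphocyte and 1 erythroid marker were lower. The lists from endothelial to kidney are too small to set against the shares of all tested genes. The kidney marker Slc5a2 was at 0 in 18 mice and the neutrophil marker Ly6g in 19. In whole tissue, fewer cells of a type and less RNA per cell cannot be told apart. The part of these shifts in the values that follow was not tested.

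Mouse KO_391 was the KO mouse nearest to the WT mice. In a principal component analysis of the 1000 genes that varied most, the first component held 73.2% of the variance, and on it this mouse lay at -4.07, while the other KO mice lay at -58.2 to -28.5 and the WT mice at 22.5 to 45.6. That gap did not pass the rule, given at the end, for a mouse far from the rest of its genotype. Mouse KO_391 had the highest value among KO mice for 6 of the 9 genes. The results are therefore given with it and, where it matters, without it.

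The stretches before the transcript starts of 3 of the genes are shown because these genes carry the contrast followed here between making glucose (Pck1, G6pc) and burning it (Pklr). Each is the 250 bases before a start in RefSeq, build GRCm38.p6, plus strand: Pck1 at chr2:173152823-173153072, G6pc at chr11:101367466-101367715 and Pklr, at the second of its starts, at chr3:89136373-89136622. Capitals mark TATAAA, TGACGTAA and GTTAAT on either strand, so that the last 2 may be read as TTACGTCA and ATTAAC.
Pck1: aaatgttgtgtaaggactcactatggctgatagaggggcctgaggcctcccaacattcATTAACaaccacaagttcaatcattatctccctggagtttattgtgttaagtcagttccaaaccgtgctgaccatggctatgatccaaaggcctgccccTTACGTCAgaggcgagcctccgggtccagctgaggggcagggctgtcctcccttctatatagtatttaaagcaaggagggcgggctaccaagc
G6pc: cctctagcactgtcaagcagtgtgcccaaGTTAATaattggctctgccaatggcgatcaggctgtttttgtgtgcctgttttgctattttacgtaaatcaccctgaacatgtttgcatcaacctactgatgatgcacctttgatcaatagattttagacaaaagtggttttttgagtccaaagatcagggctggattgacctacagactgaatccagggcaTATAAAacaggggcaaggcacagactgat
Pklr: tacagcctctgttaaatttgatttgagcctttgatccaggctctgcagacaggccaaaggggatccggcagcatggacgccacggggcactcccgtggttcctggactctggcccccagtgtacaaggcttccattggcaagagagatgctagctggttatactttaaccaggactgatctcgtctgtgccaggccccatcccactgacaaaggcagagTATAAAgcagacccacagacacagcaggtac
The Pck1 stretch holds TTACGTCA at -93 to -86 from the start, which are the letters known as the cAMP response element of this gene. TGACGTAA occurs in 0.499% of 32851 RefSeq promoter windows (250 bases before to 50 after each start). ATTAAC lies at -192 to -187 of Pck1 and GTTAAT at -221 to -216 of G6pc, letters found within sites of hepatocyte nuclear factor 1, and 7.1% of windows hold them. A TATAAA box lies at -29 to -24 of G6pc and at -31 to -26 of Pklr, and 13.6% of windows hold one. Among the other windows, 1 of Gckr holds GTTAAT and 1 of Slc37a4 holds TATAAA. The marked motifs do not overlap one another. Of the 9 genes 8 had a RefSeq entry, 11 in all, and Gys2 had none. None of the 11 windows held TGACGTCA, GTAAACA or CACGTG, which 1.79%, 3.65% and 7.15% of all windows hold. These matches are letters in a window, and binding was not measured.

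With TMM scaling, most of these genes were lower in KO livers: Pck1, Fbp1 and Slc37a4 of gluconeogenesis and glucose release, Gckr, Slc2a2, and Gys2 and Pygl of glycogen. Of the 9 genes 7 fell and 0 rose (edgeR quasi-likelihood test, Benjamini-Hochberg adjusted p under 0.05 over all 13670 genes), where 31.0% of all tested genes fell and 28.2% rose. The estimates of all 9 were below 0, with a median log2 fold change of -0.54 beside -0.025 over all tested genes. Without mouse KO_391 all 9 fell, in a fit where 4037 of all genes tested fell and 4180 rose, beside 4233 and 3853 with all 20 mice. For 0 of the 9 genes did all KO values lie below all WT values, which was so for 6.47% of tested genes.

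**Figure D1:**
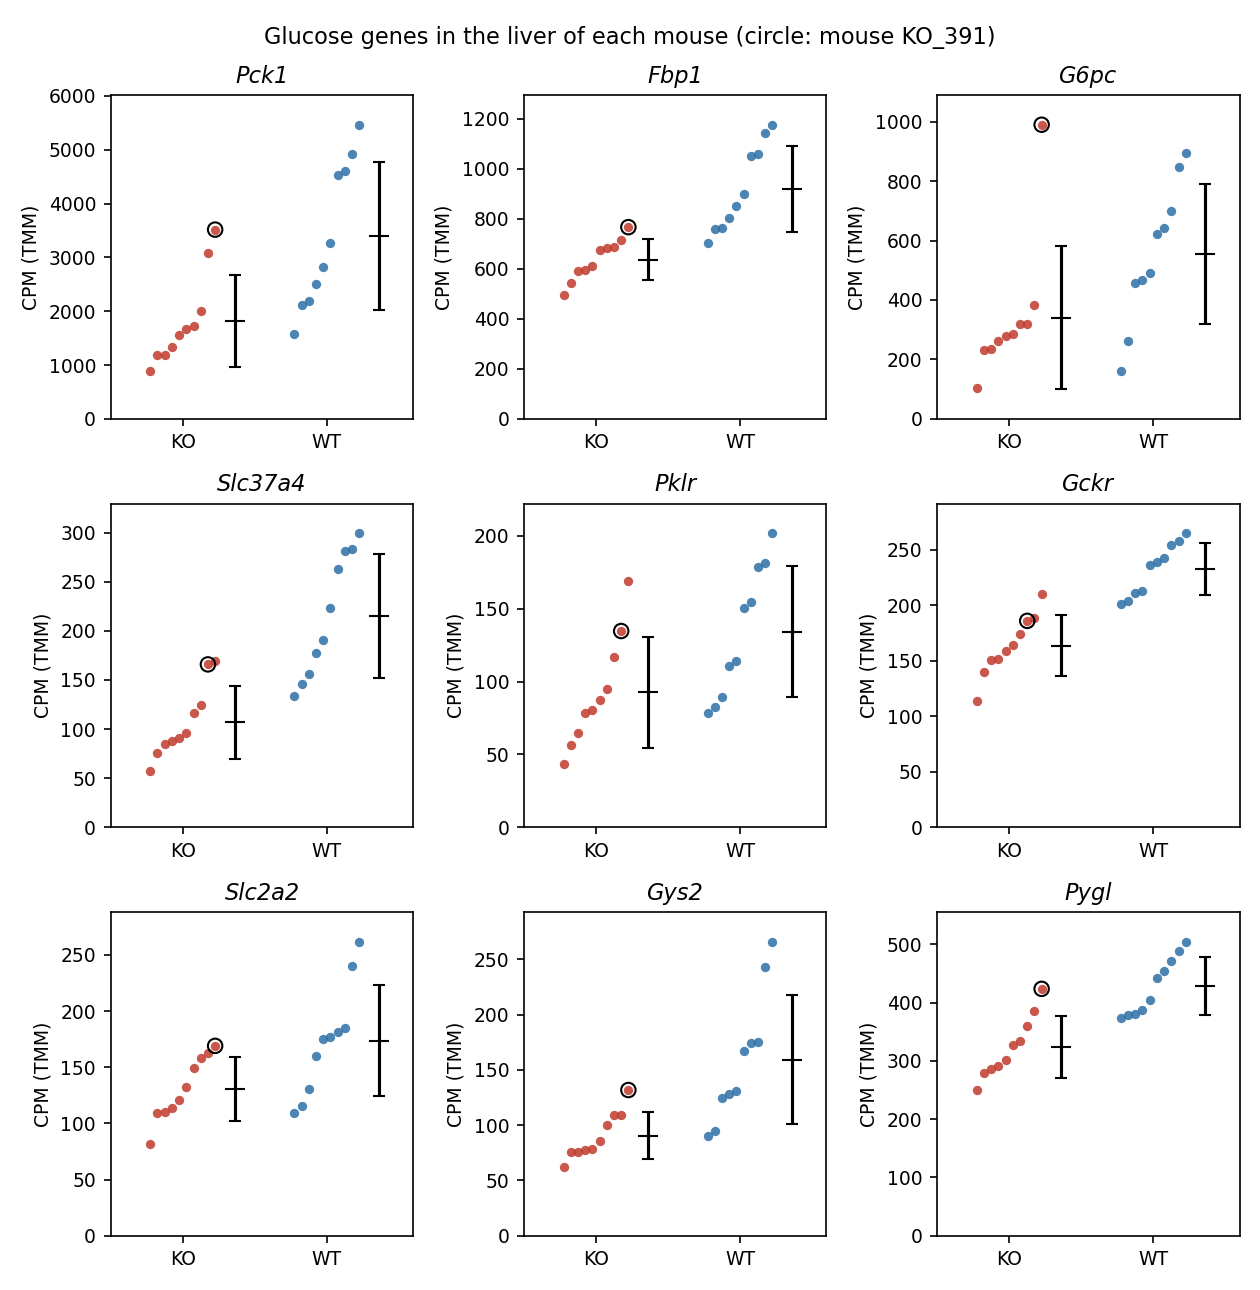
TMM-scaled CPM (linear axes from 0) of each gene in each mouse, KO left and WT right, with the points of a genotype drawn from low to high. Black bars are means ± SD (n = 10 each) and the circle marks mouse KO_391, whose 989.5 CPM of G6pc lies above all other mice of both genotypes.

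Pck1 (mm10 chromosome 2, 173153073 to 173159254, plus strand, 10 exon blocks), the cytosolic carboxykinase, had 889.3 to 3515.4 CPM with a median of 1613.1 in KO mice, against 1575.6 to 5463.5 CPM with a median of 3039.8 in WT mice. The groups overlapped, with 5 of 10 KO mice below the lowest WT mouse. Pck1 fell, with a log2 fold change of -0.91 (SE 0.261, edgeR adjusted p = 0.00531).

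Fbp1 (mm10 chromosome 13, 62864753 to 62888236, minus strand, 7 exon blocks), the bisphosphatase, had 496.0 to 766.0 CPM with a median of 642.3 in KO mice, against 702.4 to 1175.2 CPM with a median of 872.7 in WT mice. Only the top of the KO range reached into the WT range, and 8 of 10 KO mice lay below the lowest WT mouse. Fbp1 fell by 0.53 on the log2 scale (SE 0.103, edgeR adjusted p = 0.000138). It spread little between mice, with a coefficient of variation of 13.0% in KO and 18.7% in WT.

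G6pc (mm10 chromosome 11, 101367730 to 101377903, plus strand, 5 exon blocks), the phosphatase catalytic subunit, had 103.3 to 989.5 CPM with a median of 281.6 in KO mice, against 161.5 to 893.4 CPM with a median of 557.0 in WT mice. Mouse KO_391 carried the highest value of all 20 mice, while the other 9 KO mice did not exceed 384.4 CPM. G6pc had a log2 fold change of -0.70 (SE 0.335, edgeR adjusted p = 0.0766) and did not pass. Without mouse KO_391 it was -1.02 (SE 0.272, edgeR adjusted p = 0.00331) and passed. It also passed without mouse WT_406, the lowest WT mouse, at -0.82 (edgeR adjusted p = 0.0315).

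Slc37a4 (mm10 chromosome 9, 44398176 to 44402966, plus strand, 8 exon blocks) encodes the transporter that carries glucose-6-phosphate to that phosphatase. It had 57.8 to 169.3 CPM with a median of 93.3 in KO mice, against 133.2 to 299.6 CPM with a median of 206.7 in WT mice. The 2 highest KO mice reached into the WT range, and the other 8 KO mice lay below every WT mouse. Slc37a4 fell by 1.01 on the log2 scale (SE 0.197, edgeR adjusted p = 0.000178). Its KO mean was 49.6% of the WT mean, the lowest share among the 9 genes, and in the fits without 1 mouse its log2 fold change ran from -1.11 to -0.92, with all 20 calls kept.

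On the glycolytic side, Pklr (mm10 chromosome 3, 89136142 to 89146594, plus strand, 12 exon blocks), the liver pyruvate kinase, had 43.5 to 169.3 CPM with a median of 83.9 in KO mice, against 78.3 to 201.9 CPM with a median of 132.4 in WT mice. The ranges overlapped widely, with 3 of 10 KO mice below the lowest WT mouse. Pklr had a log2 fold change of -0.54 (SE 0.233, edgeR adjusted p = 0.0540) and did not pass. It passed in 5 of the 20 fits without 1 mouse, those without KO_391, KO_453, WT_389, WT_390 and WT_415, at -0.65 to -0.58.

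Gckr (mm10 chromosome 5, 31297581 to 31327302, plus strand, 19 exon blocks), a regulatory protein of hepatocyte glucose use, had 113.7 to 210.0 CPM with a median of 161.6 in KO mice, against 201.0 to 265.2 CPM with a median of 237.6 in WT mice. With the exception of mouse KO_404 at the top of the KO range, 9 of 10 KO mice lay below every WT mouse. Gckr fell by 0.51 on the log2 scale (SE 0.0886, edgeR adjusted p = 4.43e-05), and kept its call in all 20 fits without 1 mouse.

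Slc2a2 (mm10 chromosome 3, 28697903 to 28728361, plus strand, 11 exon blocks), the low-affinity glucose transporter of hepatocytes, had 81.7 to 169.0 CPM with a median of 126.8 in KO mice, against 109.4 to 261.9 CPM with a median of 176.0 in WT mice. Every KO mouse lay below the WT median, but only 2 lay below the lowest WT mouse. Slc2a2 fell by 0.41 on the log2 scale (SE 0.155, edgeR adjusted p = 0.0283). Without any one of KO_372, KO_414, KO_416, KO_434, KO_435, WT_407 and WT_427 it no longer passed, with edgeR adjusted p-values up to 0.0676.

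In glycogen metabolism, Gys2 (mm10 chromosome 6, 142422613 to 142473109, minus strand, 17 exon blocks), the liver glycogen synthase, had 62.4 to 131.7 CPM with a median of 82.0 in KO mice, against 90.1 to 266.0 CPM with a median of 148.9 in WT mice. All KO mice lay below the WT median and 6 below the lowest WT mouse. Gys2 fell by 0.82 on the log2 scale (SE 0.186, edgeR adjusted p = 0.000806).

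Pygl (mm10 chromosome 12, 70190815 to 70227683, minus strand, 20 exon blocks), the liver glycogen phosphorylase, had 250.2 to 423.8 CPM with a median of 314.6 in KO mice, against 373.9 to 505.1 CPM with a median of 423.7 in WT mice. Of the KO mice 8 lay below every WT mouse. Pygl fell by 0.41 on the log2 scale (SE 0.0898, edgeR adjusted p = 0.000549). In the deposited annotation the exons of these 9 genes overlap no exon of another gene.

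How many of the 9 genes count as lower depended on how the libraries were scaled. The TMM factors averaged 1.18 ± 0.057 in KO and 0.851 ± 0.0599 in WT libraries (SD, n = 10 each). With library size alone the log2 fold change over all tested genes had a median of 0.445, beside -0.079 over the 9 genes. Of the 9 genes 1 was lower and 0 higher, where 6.71% of all genes were lower and 68.4% higher. The gene that stayed lower was Slc37a4, at -0.55 (SE 0.178, edgeR adjusted p = 0.00815). Pck1 and Gys2 kept estimates of -0.46 and -0.36 without passing (edgeR adjusted p = 0.0985 and 0.0763). G6pc had -0.27, Fbp1, Pklr and Gckr had -0.079, -0.060 and -0.040, and Slc2a2 and Pygl turned to 0.055 and 0.063, with edgeR adjusted p-values of 0.433 to 0.810 for these 6 genes.

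Another scaling held the mean log level of the 14 hepatocyte identity genes equal between libraries, and so set each gene against other hepatocyte RNA. The median of all tested genes then lay at 0.645, and that of the 9 genes at 0.12. Of the 9 genes 0 were lower and 1 higher, where 3.97% of all genes were lower and 80.2% higher. The gene that was higher was Pygl, at 0.26 (SE 0.0977, edgeR adjusted p = 0.0185). Slc37a4 had -0.35 (SE 0.168, edgeR adjusted p = 0.0603), Pck1 -0.23, Gys2 -0.14 and G6pc -0.043. Slc2a2, Gckr, Fbp1 and Pklr had 0.26, 0.16, 0.14 and 0.12. Under all 3 scalings the estimates of Slc37a4, Pck1, Gys2 and G6pc were below 0, and under all 3 Slc37a4 had the lowest.

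**Figure D2:**
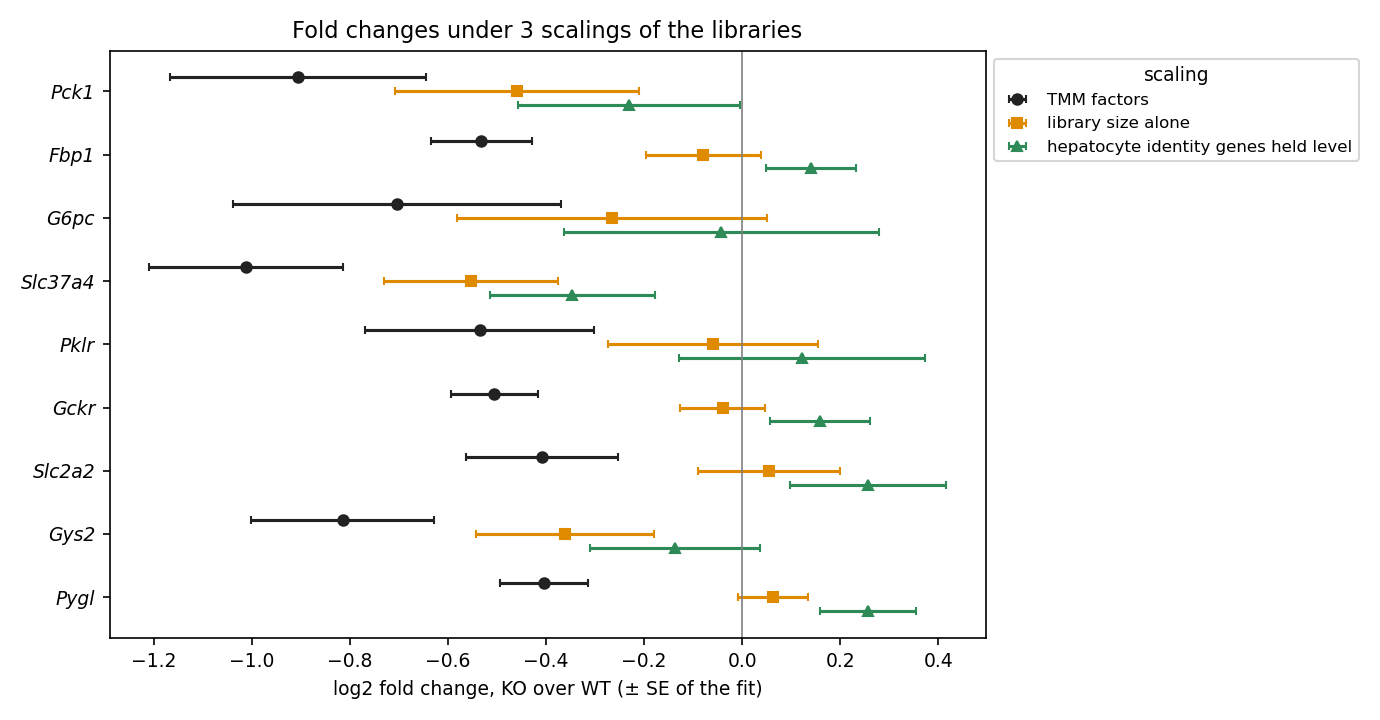
Log2 fold change of KO over WT for each of the 9 genes (points, with bars of ± 1 SE of the edgeR fit) when libraries were scaled by TMM factors, by library size alone or by the hepatocyte identity genes. All 9 points lie below 0 with TMM factors, and 4 of 9, with Slc37a4 farthest, with the hepatocyte identity genes held level.

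Levels of different genes were compared as RPKM, the deposited signal per kilobase of exon. Pck1 was the highest of the 9 at 694.1 ± 327.4 RPKM in KO and 1297.5 ± 526.8 RPKM in WT livers, and Fbp1 was next at 444.1 ± 58.5 RPKM in KO and 640.6 ± 120.8 RPKM in WT livers (SD, n = 10 each). G6pc had 151.9 ± 107.7 RPKM in KO and 246.5 ± 104.4 RPKM in WT livers. Below them, in RPKM of KO and then WT livers, came Pygl (114.9 and 151.7), Gckr (81.4 and 115.2), Slc37a4 (51.3 and 103.1), Slc2a2 (50.9 and 67.4), Gys2 (34.1 and 59.9) and Pklr (33.1 and 47.8). The order of the 9 means was thus the same in both genotypes. In KO livers the ranges of every pair of neighbours in that order overlapped, those of Fbp1 and G6pc only through mouse KO_391. It had 443.9 RPKM of G6pc, while the next KO mouse had 172.2 RPKM, below the lowest Fbp1 value of 346.2 RPKM. In WT livers the ranges of Fbp1 and G6pc, and of Pygl and Gckr, did not overlap, while those of the other neighbours did. Phosphorylase RNA exceeded synthase RNA in both genotypes: per length, Pygl ranged from 88.2 to 151.3 RPKM and Gys2 from 23.4 to 49.9 RPKM in KO livers, against 131.4 to 179.0 RPKM and 33.7 to 100.3 RPKM in WT livers.

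The ratio of 2 genes within a mouse does not depend on the scaling. For 7 ratios of opposing or partner enzymes, the difference in mean log2 ratio of CPM was tested by a 2-sided permutation test with 100000 resamples, adjusted over the 7. Of the 5 given here, 2 passed, namely Fbp1 to Pfkl and Pkm to Pklr, and the other 3 did not.

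The clearest was Fbp1 against Pfkl, the liver phosphofructokinase that runs the opposite step. The log2 ratio was 3.3 to 4.43 with a median of 4.12 in KO mice, against 4.55 to 5.04 with a median of 4.79 in WT mice. The groups did not overlap, mouse KO_391 included, which at 4.43 had the highest KO ratio. The difference was -0.79 (permutation adjusted p = 7e-05, from p = 1e-05, the smallest that the resamples can give), a ratio 0.58 times that of WT. Pfkl itself averaged 39.5 CPM in KO and 32.8 CPM in WT livers, with a log2 fold change of 0.27 (SE 0.0865, edgeR adjusted p = 0.0112). With the hepatocyte genes held level Fbp1 had 0.14 and Pfkl 0.95, beside a median of 0.645 over all tested genes. The part of the hepatocyte marker shift in this ratio was not tested.

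Pkm, the pyruvate kinase gene of most tissues other than hepatocytes, rose relative to Pklr. The log2 ratio was -3.1 to -0.41 with a median of -1.51 in KO mice, against -4.28 to -1.35 with a median of -3.44 in WT mice. The ranges overlapped, yet all 10 KO mice lay above the WT median. The difference was 1.38 (permutation p = 0.00827, adjusted p = 0.0193), a ratio 2.6 times that of WT. Pkm itself averaged 25.8 CPM in KO and 15.4 CPM in WT livers (log2 fold change 0.73, edgeR adjusted p = 0.0109). Per length Pklr was still the higher of the pair, at 33.1 RPKM beside 9.92 RPKM of Pkm in KO livers, against 47.8 RPKM beside 5.91 RPKM in WT livers. Macrophage markers, with the sums given above, moved with it, and their part in the ratio was not tested.

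The Gys2 to Pygl log2 ratio was -2.0 to -1.61 with a median of -1.92 in KO mice, against -2.23 to -0.51 with a median of -1.54 in WT mice. All 10 KO mice lay below the WT median, but the KO range lay inside the WT range. The SD of the log2 ratio was 0.133 in KO and 0.522 in WT mice. The difference of -0.35 did not pass (permutation p = 0.0514, adjusted p = 0.0839), and passed without WT_389 at -0.42 (exact permutation adjusted p = 0.0283) or without WT_390 at -0.43 (exact permutation adjusted p = 0.0154).

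For the glucose-6-phosphatase system, the log2 ratio of G6pc to its transporter partner Slc37a4 was 0.28 to 2.73 in KO and -0.13 to 2.26 in WT mice, with medians of 1.57 and 1.58. The difference of 0.26 was within the spread between mice (permutation adjusted p = 0.484). The Pck1 to Pklr log2 ratio was 2.81 to 5.26 with a median of 4.58 in KO mice, against 3.39 to 5.85 with a median of 4.57 in WT mice. Its difference of -0.35 did not pass either (permutation adjusted p = 0.456).

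**Figure D3:**
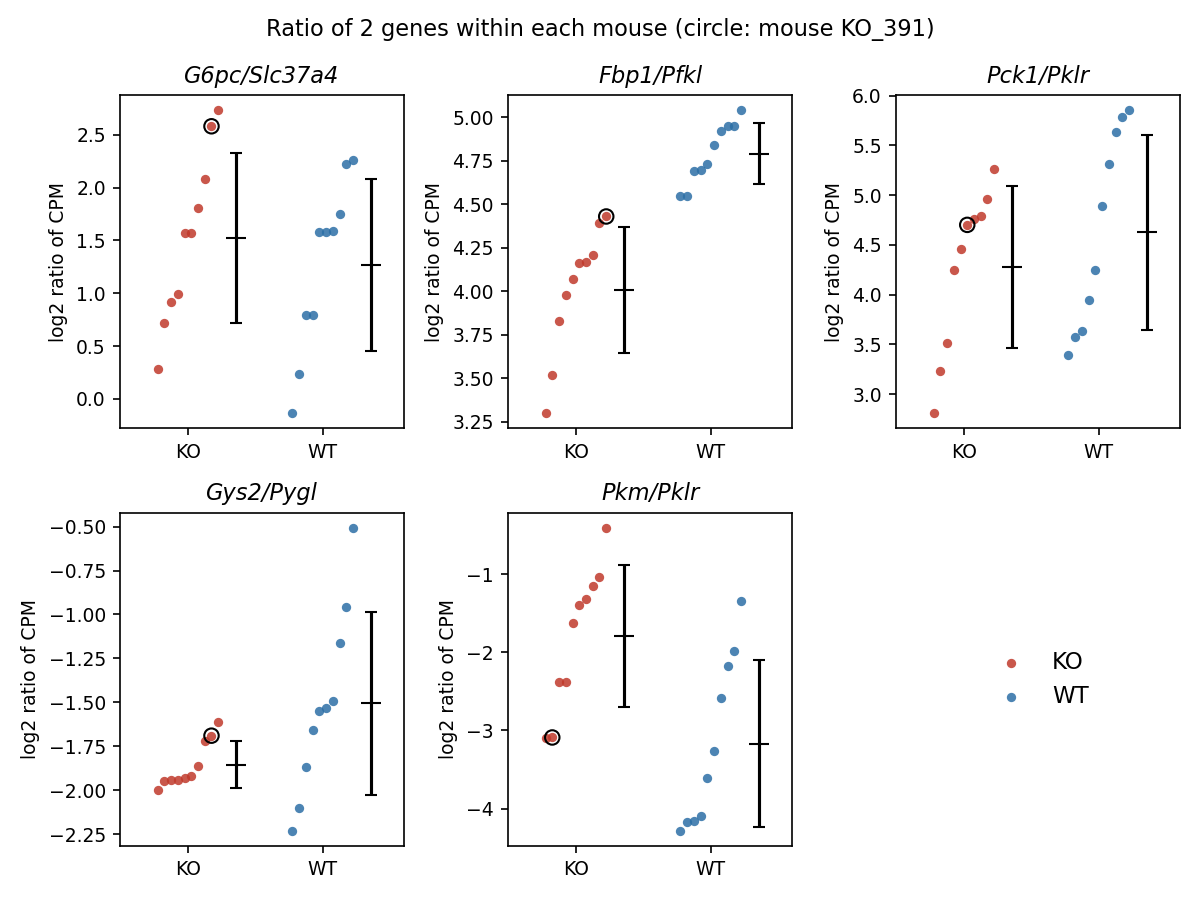
Log2 ratio of CPM of 2 genes within each mouse, KO left and WT right, for 5 pairs, with points of a genotype drawn from low to high, black bars of mean ± SD (n = 10 each) and a circle on mouse KO_391. The KO and WT points of Fbp1/Pfkl do not overlap, and those of the other 4 pairs do.

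The 9 genes differed in how much they varied between mice of a genotype. The highest CPM of G6pc was 9.58 times the lowest in KO and 5.53 times in WT mice, the widest range of the 9 genes in each genotype. The KO value rests on mouse KO_391: without it G6pc spanned 3.72 times, Pck1 3.46 times and Pklr 3.9 times among KO mice. Pck1 followed in WT mice at 3.47 times and spread 3.95 times in KO mice, beside 3.9 times for Pklr in KO mice. Fbp1 had the narrowest KO range at 1.54 times, and Gckr the narrowest WT range at 1.32 times, with Pygl at 1.69 times in KO and 1.35 times in WT mice. The mice at the extremes differed by gene. Mouse KO_414 had the lowest KO value for 5 of the 9 genes, G6pc, Slc2a2, Pklr, Gys2 and Pygl. Mouse WT_406 had the lowest WT value for Pck1, Fbp1 and G6pc, and WT_415 for Gckr, Slc2a2 and Slc37a4.

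Among KO mice Slc2a2, Gys2 and Pygl varied together. Over 36 pairs of the 9 genes in each genotype, Pearson's r of log2 CPM passed for 5 pairs in KO mice and 0 pairs in WT mice (permutation p adjusted over all 72). Slc2a2 and Pygl had r = 0.95 (permutation p = 2e-05, adjusted p = 0.00144) and Spearman's rho of 0.94 (permutation adjusted p = 0.0122), and r = 0.94 without the 2 mice farthest from the median of Slc2a2. Slc2a2 and Gys2 had r = 0.94 (permutation p = 9e-05, adjusted p = 0.00264) and rho = 0.87 (permutation adjusted p = 0.0535), and r = 0.93 without the 2 farthest mice. Gys2 and Pygl had r = 0.94 (permutation p = 0.00011, adjusted p = 0.00264) and rho = 0.90 (permutation adjusted p = 0.0238), and r = 0.95 without the 2 farthest mice. These 3 pairs also passed without mouse KO_391 and with library size alone.

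Pklr joined this group less firmly. With Gys2 it had r = 0.87 (permutation p = 0.00123, adjusted p = 0.0221) and rho = 0.84 (permutation adjusted p = 0.0625), and r = 0.83 without the 2 farthest mice. With Slc2a2 it had r = 0.83 (permutation p = 0.00328, adjusted p = 0.0472) and rho = 0.82 (permutation adjusted p = 0.0824), and r = 0.67 without the 2 farthest mice. Neither pair passed without mouse KO_391 (permutation adjusted p = 0.0537 and 0.109). In WT mice the same 5 pairs had r = 0.60, 0.76, 0.15, 0.41 and 0.77 in the order given here, and whether the genotypes differ in these correlations was not tested. The median r over the 36 pairs was 0.49 in KO and 0.01 in WT mice, and r was above 0 in 34 pairs in KO and 18 pairs in WT mice. Without mouse KO_391 the KO median was 0.32 with 28 pairs above 0, and with library size alone 0.31 with 26.

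No pair among Pck1, Fbp1, G6pc and Slc37a4 passed in either genotype, which with 10 mice each does not show that these genes vary apart. Pck1 had r = 0.54 with G6pc in KO and 0.68 in WT mice, and r = 0.77 with Slc37a4 in KO and 0.66 in WT mice, none of which passed (permutation adjusted p = 0.0780 to 0.300 over the 4 cases). The highest r of Fbp1 with another of the 9 genes was 0.48 with Gckr in KO and 0.60 with Gys2 in WT mice, and neither passed (permutation adjusted p = 0.366 and 0.256).

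**Figure D4:**
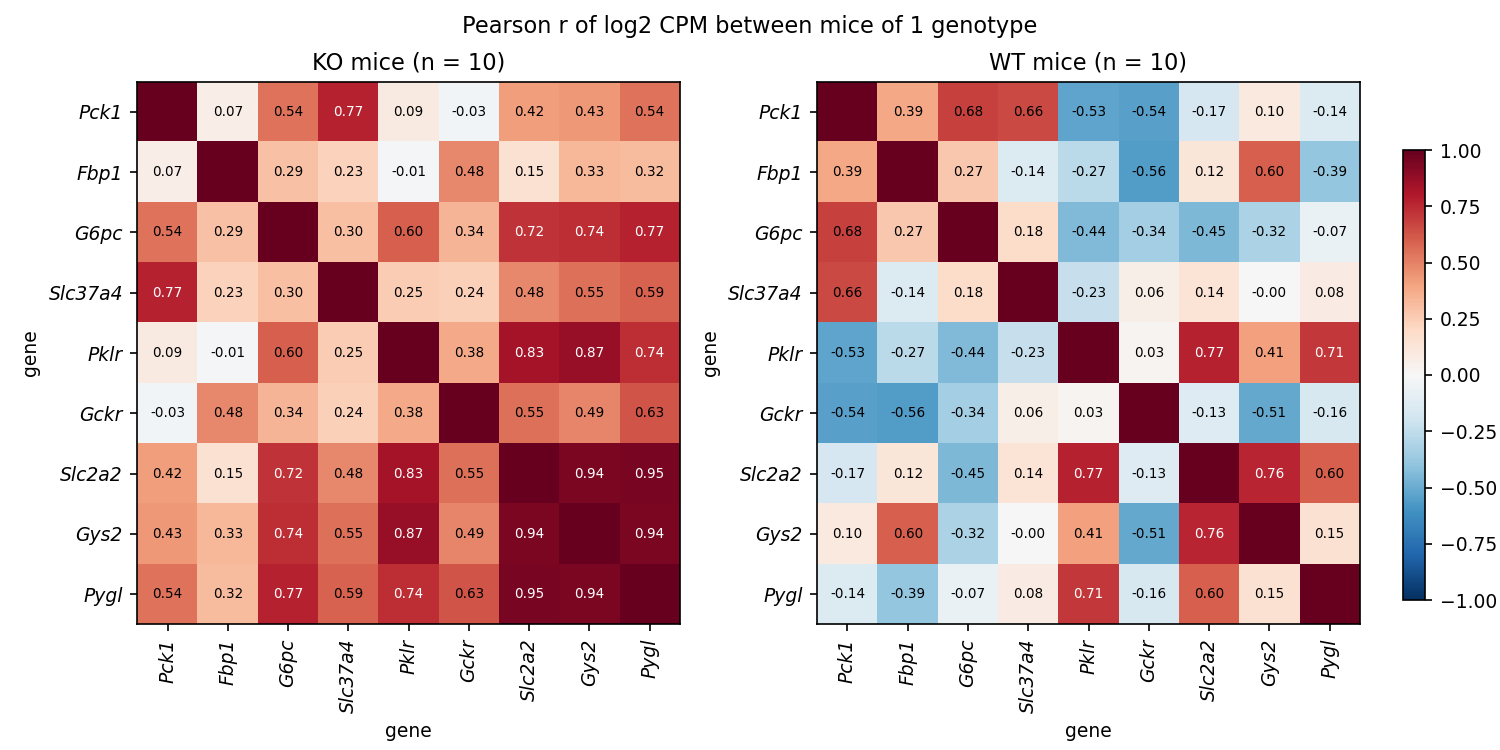
Pearson's r of log2 CPM between mice for each pair of the 9 genes, within the 10 KO mice (left) and within the 10 WT mice (right), on a colour scale from -1 to 1. The block of Pklr, Slc2a2, Gys2 and Pygl has r of 0.74 to 0.95 in KO mice and of 0.15 to 0.77 in WT mice.

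Outside the 9, the genes most like each of them were taken by Pearson's r of log2 CPM centred within genotype over the 20 mice, as a description with no test. The mice share their libraries, so depth and scaling enter every such r. Slc2a2 was most like Per2, a repressor of the circadian clock (r = 0.89), and Decr2 (0.84). Gys2 was most like Dbp, a clock-controlled transcription factor (0.87), and Stxbp6 (0.86). Per2 averaged 7.44 CPM in KO and 14.2 CPM in WT livers (log2 fold change -0.93, edgeR adjusted p = 0.00187). Dbp averaged 11.8 CPM in KO and 33.1 CPM in WT livers (log2 fold change -1.49, edgeR adjusted p = 0.0241).

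Pklr was most like the glycerol channel gene Aqp9 (0.89) and Ugp2, which makes the UDP-glucose used for glycogen (0.88). G6pc was most like the mitochondrial carrier gene Slc25a25 (0.90) and Tsr1 (0.77), and Pck1 like Bdp1 (0.94) and Atl2 (0.92). Slc37a4 was most like Cdip1 (0.90) and Ip6k2 (0.88). Fbp1 was most like Snrnp200 (0.87) and Ndst1 (0.86), Gckr like 6430550D23Rik (0.86) and the paraoxonase gene Pon1 (0.84), and Pygl like Syne4 (0.91) and the complement protease gene C1s1 (0.89).

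The other genes of glycolysis and gluconeogenesis went mostly the other way. Of 25 tested, 15 were higher and 3 lower in KO with TMM scaling, with a median log2 fold change of 0.29, where 28.2% of all tested genes were higher and 31.0% lower. Gpi1, which interconverts glucose-6-phosphate and fructose-6-phosphate, averaged 266.7 CPM in KO and 152.3 CPM in WT livers, and all KO mice lay above all WT mice (log2 fold change 0.81, SE 0.0776, edgeR adjusted p = 1.4e-08). It was named for its small adjusted p, and the share of all tested genes that lay so is not given here. Aldoa, the aldolase of muscle and most tissues, rose by 0.90, and Pfkm, the muscle phosphofructokinase, by 0.73 on the log2 scale. Pck2, the mitochondrial carboxykinase, averaged 8.88 CPM in KO and 2.66 CPM in WT livers (log2 fold change 1.73, SE 0.235, edgeR adjusted p = 2.16e-06), so that it and Pck1 moved in opposite directions with TMM scaling. Per length Pck1 remained far above Pck2, at 694.1 and 2.61 RPKM in KO livers, against 1297.5 and 0.781 RPKM in WT livers. With library size alone 20 of the 25 were higher and 0 lower, where 68.4% of all tested genes were higher and 6.71% lower. In the fit without mouse KO_391 17 were higher and 2 lower, where 4180 of all genes tested were higher and 4037 lower.

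Among glycogen enzymes and their regulators other than Gys2 and Pygl, 9 of 22 tested were higher and 5 lower, with a median log2 fold change of 0.17, beside 28.2% and 31.0% of all tested genes. Pygb, the phosphorylase of brain and other tissues, averaged 21.8 CPM in KO and 3.5 CPM in WT livers with no overlap between the genotypes (log2 fold change 2.64, SE 0.237, edgeR adjusted p = 1.06e-08). Pgm1, Gbe1 and Gaa, which encode a phosphoglucomutase, the branching enzyme and the lysosomal glucosidase, rose by 1.26, 0.85 and 0.59 on the log2 scale, each also without overlap. These genes and Pygb were named for the smallest adjusted p of their list. The share of all tested genes that rose without overlap is not given here. Per length Pygb was still below Pygl, at 5.69 RPKM beside 114.9 RPKM in KO livers. Pgm2, another phosphoglucomutase gene of the list, named after its values were seen, was lower in KO (log2 fold change -0.20, edgeR adjusted p = 0.00281). With library size alone Pgm2 had 0.27 (edgeR adjusted p = 0.00131). Per length Pgm2 was far above Pgm1, at 77.6 RPKM beside 4.31 RPKM in KO livers, against 88.8 RPKM beside 1.8 RPKM in WT livers.

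The subunits that bring protein phosphatase 1 to glycogen, named after their values were seen, went in different directions. Ppp1r3c had 7.93 to 27.5 CPM with a median of 14.5 in KO mice, against 22.9 to 177.1 CPM with a median of 50.7 in WT mice (log2 fold change -2.25, SE 0.376, edgeR adjusted p = 4.37e-05). Ppp1r3b, the main one in liver, had 41.7 to 148.3 CPM with a median of 88.6 in KO mice, against 122.1 to 327.1 CPM with a median of 170.3 in WT mice (log2 fold change -1.02, SE 0.232, edgeR adjusted p = 0.000836). Both genes were also lower with library size alone, at -1.78 and -0.56 (edgeR adjusted p = 0.000257 and 0.0257), and had -1.56 and -0.36 with the hepatocyte genes held level (edgeR adjusted p = 0.000515 and 0.104). Ppp1r3g had 3.12 to 65.3 CPM with a median of 21.9 in KO mice, against 0.253 to 16.7 CPM with a median of 1.1 in WT mice (log2 fold change 2.79, SE 0.673, edgeR adjusted p = 0.0015). Without mouse WT_429, its highest WT mouse, that was 3.51.

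The muscle phosphorylase gene Pygm, also named after its values were seen, was counted among the 5 that fell, with a log2 fold change of -2.16 (edgeR adjusted p = 0.0203), but the medians were 1.05 CPM in KO and 0.795 CPM in WT mice. Mouse WT_389 alone had 32.0 CPM, and also the highest sum of 4 muscle markers at 477.5 CPM, beside at most 0.842 CPM in KO mice and 119.7 CPM in the next WT mouse. Without WT_389 Pygm had -0.72 and did not pass (edgeR adjusted p = 0.222).

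Of 28 genes of glucose, insulin and glucagon sensing, 14 were lower and 4 higher with TMM scaling, with a median log2 fold change of -0.305, where 31.0% of all tested genes were lower and 28.2% higher. The glucagon receptor gene Gcgr averaged 259.3 CPM in KO and 360.9 CPM in WT livers (log2 fold change -0.48, SE 0.072, edgeR adjusted p = 7.27e-06). All its KO values lay below all WT values, as in 6.47% of all tested genes. The glucocorticoid receptor gene Nr3c1, the deacetylase gene Sirt1 and the hepatocyte factor gene Cebpa had log2 fold changes of -0.42, -0.54 and -0.49. With library size alone 11 of the 28 were higher and 1 lower, beside 68.4% and 6.71% of all tested genes. Gcgr then had -0.0046 and Nr3c1 0.044, and with the hepatocyte genes held level all 4 of these genes had estimates above 0. Cebpa is also one of the hepatocyte identity genes used for that scaling.

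Igfbp1, a gene that insulin represses, and Txnip and Mlxipl, a target and the gene of the carbohydrate response factor ChREBP, were named after their values were seen. Igfbp1 had 345.0 to 1366.3 CPM with a median of 527.6 in KO mice, against 62.0 to 433.1 CPM with a median of 209.6 in WT mice (log2 fold change 1.37, SE 0.339, edgeR adjusted p = 0.00179). Txnip averaged 169.8 CPM in KO and 98.8 CPM in WT livers (log2 fold change 0.78, edgeR adjusted p = 0.000619). Mlxipl averaged 324.0 CPM in KO and 483.9 CPM in WT livers, with a log2 fold change of -0.58 (edgeR adjusted p = 0.00123) that was -0.11 with library size alone and 0.063 with the hepatocyte genes held level. Exons of Txnip overlap those of Gm15441 on the opposite strand, and whether counting used strand is not stated in the sources at hand, so their fragments cannot be told apart.

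**Figure D5:**
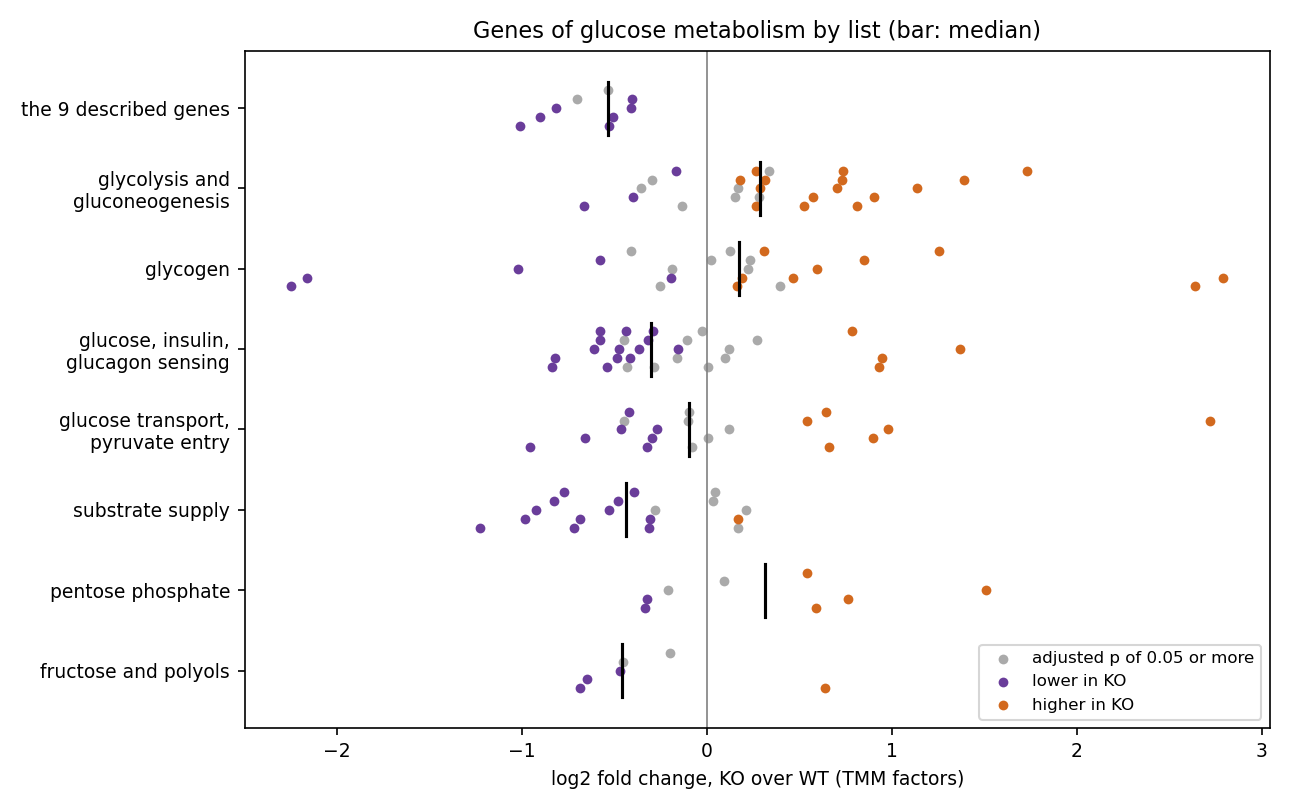
Log2 fold change of KO over WT (TMM scaling) of the 9 genes (top) and of the tested genes of 7 lists of glucose metabolism, with 1 point per gene, coloured where the edgeR adjusted p was under 0.05, and a bar at each list's median. The 9 genes lie between -1.01 and -0.41, while the glycolysis and gluconeogenesis list has 15 genes higher and 3 lower in KO.

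Genes that supply gluconeogenesis with carbon were mostly lower with TMM scaling. Of 18 tested, 12 were lower and 1 higher, with a median log2 fold change of -0.44, beside 31.0% lower and 28.2% higher among all tested genes. The cytosolic malate dehydrogenase gene Mdh1 averaged 394.9 CPM in KO and 675.4 CPM in WT livers (log2 fold change -0.77, SE 0.066, edgeR adjusted p = 2.53e-09), and the alanine aminotransferase gene Gpt averaged 176.6 CPM in KO and 335.2 CPM in WT livers (log2 fold change -0.92, SE 0.0929, edgeR adjusted p = 2.75e-08). In both genes all KO mice lay below all WT mice, as in 6.47% of all tested genes. Both were also lower with library size alone, at -0.31 and -0.46, where 3 of the 18 were lower and 7 higher, beside 6.71% and 68.4% of all tested genes. With the hepatocyte genes held level Mdh1 had -0.11 and no longer passed (edgeR adjusted p = 0.132), while Gpt had -0.26 and passed (edgeR adjusted p = 0.0026). Slc25a11 and Got2, of a mitochondrial carrier and an aspartate aminotransferase, had -0.31 each with TMM factors. With library size alone they had 0.16 each and passed as higher (edgeR adjusted p = 0.0175 and 0.0141).

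Of 19 tested genes of sugar transport and pyruvate entry 6 were higher and 7 lower, shares near the 28.2% and 31.0% of all tested genes. The monocarboxylate transporter gene Slc16a7 rose by 0.90 and Dlat, of pyruvate dehydrogenase, by 0.54 on the log2 scale. Mpc2, of the mitochondrial pyruvate carrier, and Slc2a9, a urate transporter, had -0.32 and -0.66 with TMM factors, and 0.15 and -0.20 with library size alone. Pdk4, the pyruvate dehydrogenase kinase induced by fasting and fatty acids and named after its values were seen, had 11.5 to 111.8 CPM with a median of 64.4 in KO mice, against 2.33 to 40.1 CPM with a median of 4.3 in WT mice (log2 fold change 2.72, SE 0.574, edgeR adjusted p = 0.00047). Without mouse WT_389, its highest WT mouse, that was 3.48.

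In the pentose phosphate pathway, which leaves glycolysis at glucose-6-phosphate, 4 of 8 tested genes were higher and 2 lower, beside 28.2% and 31.0% of all tested genes. Pgd rose, with medians of 102.8 CPM in KO and 36.2 CPM in WT livers (log2 fold change 1.51, SE 0.138, edgeR adjusted p = 1e-08), and G6pdx and Tkt rose by 0.76 and 0.54 on the log2 scale. Rpe had -0.32 with TMM factors and 0.15 with library size alone, where it passed as higher (edgeR adjusted p = 0.0248). Of 6 genes of fructose and polyol metabolism 3 were lower and 1 higher, too few to set against the 31.0% and 28.2% of all tested genes. Sord, Khk and Glyctk, of sorbitol oxidation, fructose phosphorylation and glycerate phosphorylation, had -0.69, -0.65 and -0.47, and the aldose reductase gene Akr1b3 had 0.64. Sord was also lower with library size alone (-0.22, edgeR adjusted p = 0.0188), but had -0.032 with the hepatocyte genes held level (edgeR adjusted p = 0.785). Khk and Glyctk had -0.17 and -0.011 with library size alone and did not pass. Exons of Rpe overlap Kansl1l and those of Glyctk a microRNA gene, both on the opposite strand.

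In the authors' deposited table of a ROTS test, all 9 genes had an FDR under 0.05 and were lower in KO, where 18.9% of its 12820 genes were lower at that FDR. In the authors' deposited table the FDR of the 9 ran from 0.000733 for Slc37a4 to 0.0461 for Slc2a2, and G6pc and Pklr, which did not pass in the edgeR fit, had 0.00666 and 0.0167. The authors' deposited table of gene ontology terms listed gluconeogenesis at an FDR of 0.0287 with 64 annotated genes and the glycogen metabolic process at 0.316 with 63. In the authors' deposited table the glucose metabolic process had an FDR of 0.0474 and the glycolytic process 0.117.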

How the data were processed

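Total RNA of 20 mouse livers (10 KO, 10 WT) was sequenced, and genotypes come from the labels, which name no litter, batch or date. P-values measure the spread between these mice. Within a genotype, the chi-square per degree of freedom between the counts of a pair of mice was 10.6 or more in all 90 pairs, so no library was a copy of another.

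Raw counts of fragments, with Entrez gene identifiers, are what the authors deposited. Per the file names, counting used Rsubread with a RefSeq annotation of mm10, while DESeq2 and HISAT2 2.0.5 are the tools in the submitters' processing notes. Whether counting used strand is not stated there. Fragments that map to several places were counted, per the deposited fragment statistics. The authors also deposited a normalized signal, which equals CPM with TMM factors over all rows to a relative deviation of 4.88e-15, and RPKM, that signal per kilobase. The deposited ROTS table gives, per the file headers, a log2 fold change, a p-value and an FDR per gene. Of the fragment statistics, 23 columns were not used here.

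Counts were tested with edgeR 4.0.16 in R 4.3.3. The filterByExpr function (with a minimum count of 10 and a minimum total of 15) kept 13670 of 20914 genes, and 0.0858% of fragments fell in the other genes. TMM factors, robust dispersions, a quasi-likelihood F test and Benjamini-Hochberg adjustment over all tested genes at 0.05 were used, and no symbol was given for 620 genes. CPM values carry the TMM factors of the tested genes, and log2 CPM was taken with a prior count of 2. The SE belongs to the edgeR estimate. The test was run on simulated counts first. Of the 7 ratios tested and adjusted together, 2 are not reported here. Ratios and correlations used permutation tests with 100000 resamples, and exact ones over 92378 rearrangements where a mouse was left out (362880 for a correlation over 9 mice). NumPy 2.4.6 and SciPy 1.17.1 were used for these.

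Alternatives were DESeq2 size factors, upper-quartile factors, library size alone, factors from the hepatocyte identity genes, no filter, a filter keeping genes with 1 CPM or more in 10 mice or more, limma-voom with quality weights, the DESeq2 1.42.0 test and limma-trend (limma 3.58.1) on log2(RPKM + pseudocount) with 0.1 and 1, each mouse left out, KO_391 and WT_441 both left out, a prior count of 0.5 and rank correlation. The members, lists, ratios and alternatives were chosen with earlier results of these data known. Named were the 9 genes, the genes of the reported ratios, up to 4 genes per list with the smallest adjusted p and the 2 genes most like each of the 9. Genes named beyond that rule are said to be so. Coordinates are those of the deposited mm10 annotation unless RefSeq is named.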

Additional observations from a re-analysis of the deposited data

Results flagged for a closer look

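G6pc in mouse KO_391 was the only value of its kind among 36 groups of 10 examined, which were the CPM of the 9 genes and of Hsd17b12, the 7 log2 ratios and the first principal component in each genotype. At 989.5 CPM it lay above the next KO mouse, at 384.4 CPM, by 0.683 of the whole KO range. The threshold for such a gap is one that about 1 in 20 groups pass by chance. In the same mouse Pck1 had 3515.4 CPM, the highest KO value, while Hsd17b12 had 50.6 CPM, within the KO range. Its summed macrophage markers were 340.4 CPM and its hepatocyte markers 66998.3 CPM, the lowest KO sum.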

How the results depend on the processing

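Scaling moved the counts most. With library size alone 9355 genes were higher and 917 lower in KO, and 1 of the 9 genes was lower; with the hepatocyte identity genes held level 10970 were higher and 543 lower, and of the 9 genes 1 was higher and 0 lower. Slc2a2 and Pygl turned to 0.055 and 0.063 with library size alone, and Fbp1, Gckr, Slc2a2, Pklr and Pygl to 0.14, 0.16, 0.26, 0.12 and 0.26 with the hepatocyte genes; why the scalings differ was not tested. Leaving out 1 mouse gave 6 to 9 lower genes of the 9, and 3704 to 4289 lower genes over all genes tested. The log2 ratio of Gys2 to Pygl ran from -0.43 to -0.24 without 1 mouse and passed in 2 of 20 fits, and the other 4 ratios kept their side of the threshold, as all 5 did with a prior count of 0.5. The correlated pairs numbered 2 by rank correlation and 3 without mouse KO_391. DESeq2 called Pklr (adjusted p = 0.0324), and limma-voom and both limma-trend fits called G6pc and Pklr too. No paired analysis was possible because the mice of the genotypes share no replicate number. Each of the 9 genes had at least 1278 fragments in every mouse.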
